A study of Homo sapiens with 8 samples.

Results

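The genes described here are 10 receptor and ligand genes of growth factor signalling, the receptor tyrosine kinases EGFR, ERBB2, ERBB3, MET, AXL and IGF1R and the EGFR ligands TGFA, AREG, HBEGF and EREG. They were chosen by symbol and are 10 of the 60675 genes in each count table. RNA was sequenced from the established pancreatic adenocarcinoma line Panc10.05, which is human, and from a derivative that had acquired resistance to indisulam in culture under rising doses over months. The 8 libraries formed 4 groups of 2. Parental untreated cells received no drug, and parental indisulam cells received 2 µM indisulam for 18 h. Resistant indisulam cells were kept on 2 µM without a break, and resistant untreated cells were the same resistant line after a drug holiday of about a week. Both resistant groups therefore share the months of selection, and whether the line is 1 clone was not given in the sources used here. The holiday came after growth on the drug. A rise or fall with indisulam in resistant cells thus means cells kept on the drug compared with cells after the holiday. Panc10.05 is the line given in the titles, which were followed, although the protocol notes speak of A549 lung cancer cells. Libraries of a group are technical replicates by the study's account, so the tests measure the spread between these libraries and not between independent cultures or independently selected lines.

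Receptor tyrosine kinases are membrane proteins that bind a growth factor outside the cell and phosphorylate themselves and other proteins inside it. EGFR binds amphiregulin (AREG), epiregulin (EREG), heparin-binding EGF-like growth factor (HBEGF) and transforming growth factor alpha (TGFA), which are made as membrane precursors and released by proteases. ERBB2 has no known ligand and ERBB3 has little kinase activity of its own, so both act mainly in pairs with other family members, and all of them feed the RAS-ERK and PI3K-AKT pathways. MET is the receptor of hepatocyte growth factor, AXL that of GAS6, and IGF1R that of the insulin-like growth factors. EGFR and its ligands are known for their part in the growth of pancreatic ductal cancer. Indisulam, a sulfonamide, acts as a glue between the splicing factor RBM39 and DCAF15, a receptor of a ubiquitin ligase, and so causes the loss of RBM39 protein.

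The libraries held between 65266253 and 108002436 reads in genes, without molecular identifiers. Between the libraries of a group the mean chi-square per gene was 2.05 to 6.32, more than counting error alone gives. The counting intervals given below cover counting error only. Markers of ductal epithelium were abundant in every library. Their summed level over 6 genes was 6324 to 6513 CPM (reads of a gene per 1e6 reads of the library, after TMM scaling) in the parental and 10800 to 12229 CPM in the resistant libraries. Fibroblast markers summed to at most 4.03 CPM, endothelial markers to at most 0.341 CPM, leukocyte markers to at most 0.181 CPM and acinar markers to at most 0.0462 CPM, with PTPRC, CD3E, DCN and CPA1 at 0 in all 8 libraries. The 4 mesenchymal markers summed to 11.9 to 12.6 CPM in the parental and to 18.8 to 23.0 CPM in the resistant libraries. RBM39 mRNA was 332 and 337 CPM in parental untreated and 716 and 731 CPM in parental indisulam libraries, and 299 and 311 CPM in resistant untreated and 577 and 591 CPM in resistant indisulam libraries, so the treated and untreated libraries were separate in each line.

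Per kilobase of the canonical transcript, AXL was the most abundant of the 10 mRNAs in every group, with means between 169 and 242 CPM per kb. MET followed with 56.9 to 73.7 CPM per kb. EGFR, TGFA, HBEGF and AREG formed a middle range, from 19.1 CPM per kb for AREG in parental untreated cells to 45.0 CPM per kb for TGFA in resistant indisulam cells. AREG was the lowest of these 4 mRNAs in parental untreated cells and the second highest, after TGFA, in resistant indisulam cells, with 44.9 CPM per kb. ERBB3 lay between 15.7 and 23.3 CPM per kb, ERBB2 between 11.9 and 14.6 CPM per kb and IGF1R between 2.02 and 2.63 CPM per kb. EREG was close to absent, at 0.0170 to 0.0405 CPM per kb, which were 16 to 30 reads over both libraries of a group.

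**Figure D1:**
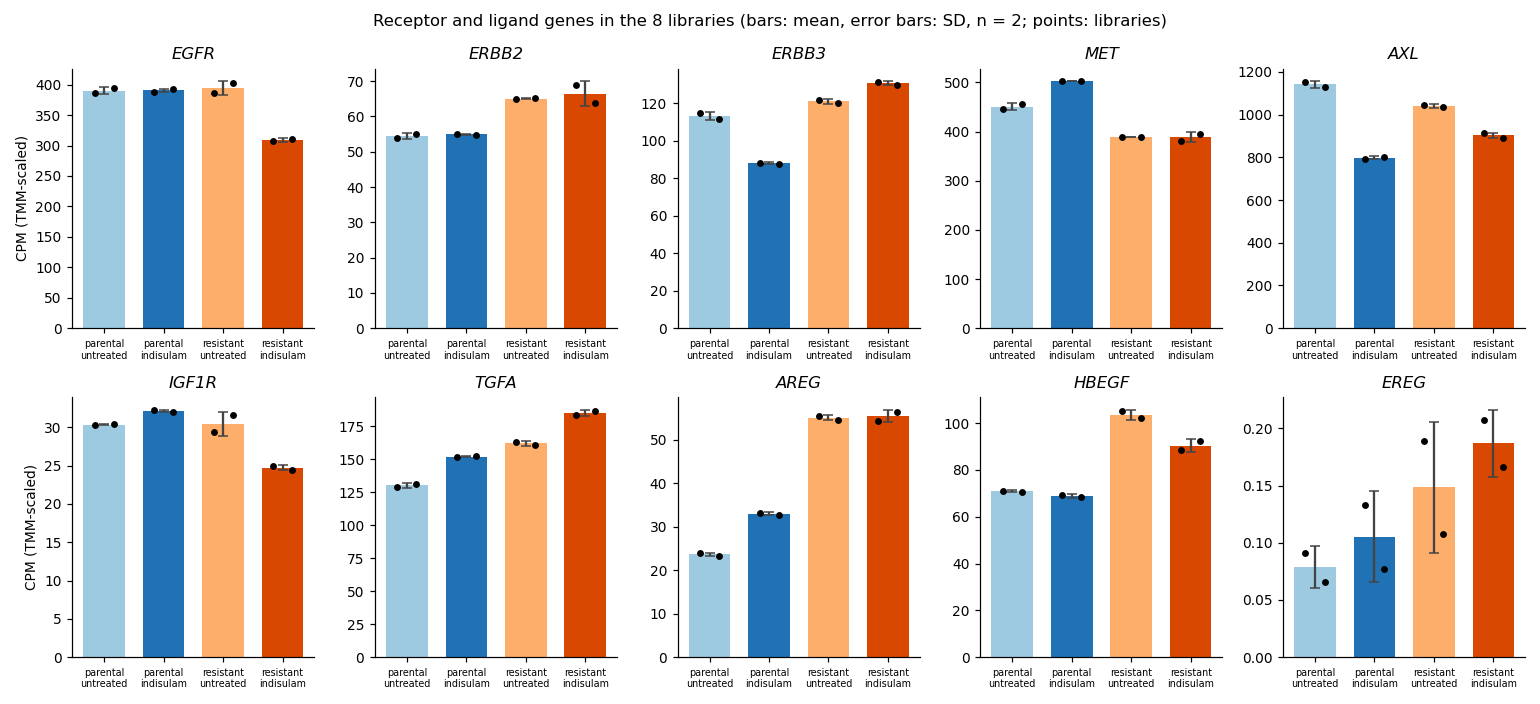
Level of each gene in CPM (vertical axis, from 0, with its own scale in each panel) in the 4 groups on the horizontal axis, with bars for the mean, error bars for the SD of 2 libraries and points for the libraries. AREG has a mean of 23.6 CPM in untreated parental cells and of 55.0 CPM in untreated resistant cells, EGFR and IGF1R are lowest in resistant indisulam cells, and AXL is lowest in parental indisulam cells.

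Changes were tested with edgeR across all 16661 genes that passed the low-count filter, and a gene was called at an adjusted p under 0.05. All 10 genes passed the filter. Indisulam in parental cells changed 5 of the 10 genes, 3 higher and 2 lower. Of all genes tested, 58.2% were called in that comparison, 31.6% higher and 26.6% lower. Indisulam in resistant cells changed 6 of the 10, 2 higher and 4 lower, where 50.7% of all genes were called, 24.9% higher and 25.8% lower. Resistant cells off the drug differed from parental cells off it in 7 of the 10, 5 higher and 2 lower, where 60.1% of all genes were called, 30.3% higher and 29.9% lower. On the drug the lines differed in 9 of the 10, 6 higher and 3 lower, where 69.5% of all genes were called, 34.6% higher and 34.9% lower. Exposure there was 18 h in parental and continuous in resistant cells. Line and length of exposure cannot be told apart in that comparison or in any value given for it below. The drug response itself differed between the lines for 7 of the 10, 2 with a higher and 5 with a lower response in resistant cells, where 50.1% of all genes were called, 22.7% higher and 27.5% lower. Most genes passed the test in each comparison, so these counts do not set the 10 genes apart and the sizes of the changes carry the description. Scaling by library totals in place of TMM moved the split of all called genes from 5259 higher and 4431 lower to 3900 and 5385 for indisulam in parental cells, from 4149 and 4297 to 5095 and 3438 in resistant cells, and from 3774 and 4577 to 5329 and 2770 for the interaction. Between the lines the split moved from 5047 and 4974 to 4599 and 5415 off the drug. On the drug it moved from 5761 and 5818 to 6835 and 4619.

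The changes were small for most of the 10 genes. Their median absolute log2 fold change was 0.19 with indisulam in parental cells and 0.19 with indisulam in resistant cells, where all tested genes had 0.23 and 0.20. It was 0.23 between the lines off the drug and 0.38 on the drug, where all tested genes had 0.26 and 0.35. Tested against a change of 0.5 log2 units in place of 0, AREG alone was called off the drug, AREG and ERBB3 were called on the drug, and 0 of the 10 were called in the other comparisons, where 0 also had an unadjusted p under 0.05. Whether a change came from every cell or from a change in the share of cells that express a gene cannot be told apart in bulk RNA. Counts per gene also do not separate correctly spliced from wrongly spliced transcripts.

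**Figure D2:**
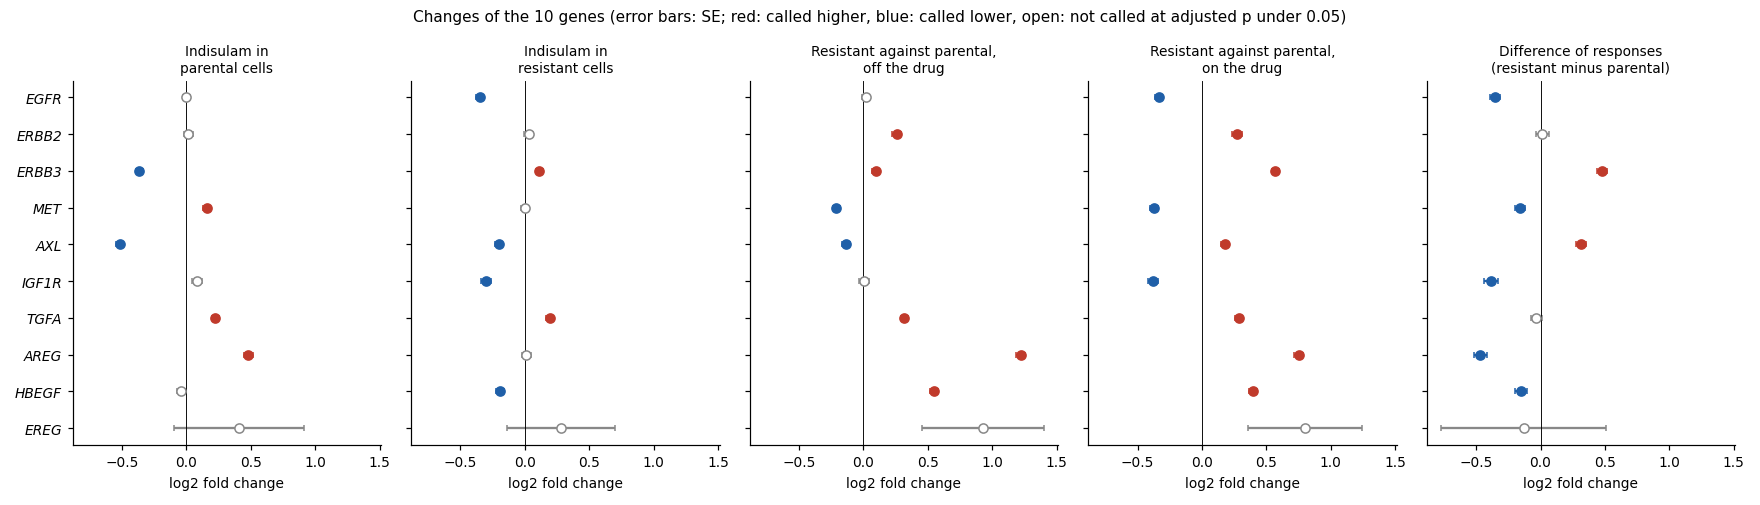
The log2 fold change of each gene (horizontal axis, error bars for the SE) in the 5 comparisons, with red for called higher, blue for called lower and open symbols for not called. Among the called genes AREG stands farthest to the right between the lines, at 1.22 off the drug and 0.75 on it. The wide error bars belong to EREG, which had few reads and was not called, at 0.80 on the drug.

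AREG (chr4:74445136-74455005, plus strand, GRCh38) encodes amphiregulin and showed the largest called change of the 10 genes. Its level was 23.9 and 23.3 CPM in parental untreated, 33.2 and 32.7 CPM in parental indisulam, 55.4 and 54.6 CPM in resistant untreated and 54.4 and 56.4 CPM in resistant indisulam libraries. The parental groups lay apart from each other and below every resistant library, and the resistant groups overlapped. Off the drug AREG was 2.33-fold higher in resistant than in parental cells, which is 1.22 ± 0.036 on the log2 scale (± SE, adjusted p = 5.14e-19). On the drug it was 1.68-fold higher (log2 0.75 ± 0.035, adjusted p = 4.62e-15). In parental cells it rose 1.40-fold within 18 h of indisulam (log2 0.48 ± 0.037, adjusted p = 2.19e-10). In resistant cells the log2 fold change with the drug was 0.012 ± 0.034 (adjusted p = 0.792). Of the 6 ductal markers 6 were also higher in resistant cells off the drug, and on it 5 were higher and EPCAM was lower (log2 -0.10). Of the 3 mesenchymal markers tested VIM and SNAI2 were higher in both comparisons and ZEB1 was called in neither (log2 -0.062 and 0.051). VIM was low in every library, from 0.240 CPM in parental indisulam replicate 1 to 1.08 CPM in resistant indisulam replicate 1. SNAI2 was at 5.55 and 5.07 CPM in parental untreated and at 15.1 and 15.8 CPM in resistant untreated libraries. The part of these markers in the AREG differences was not tested.

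AREG and EREG stand next to each other on chromosome 4, and the 250 bases before the RefSeq start of each (GRCh38.p14, plus strand) are shown because AREG is the gene that changed most and EREG its neighbour that is nearly silent. Capitals mark matches to 4 motifs that were searched on both strands: TGACGTCA (the cAMP response element), TGACTCA (the AP-1 site), TATAAA (the TATA box) and GGGCGG (the GC box). None of these letters contains another motif of the set. AREG is chr4:74444886-74445135 and EREG is chr4:74364895-74365144.
AREG: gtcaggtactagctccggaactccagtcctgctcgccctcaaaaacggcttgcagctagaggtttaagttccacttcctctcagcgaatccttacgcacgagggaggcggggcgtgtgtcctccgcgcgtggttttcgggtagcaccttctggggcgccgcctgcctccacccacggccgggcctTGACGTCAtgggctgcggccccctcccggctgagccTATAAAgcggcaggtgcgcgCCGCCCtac
EREG: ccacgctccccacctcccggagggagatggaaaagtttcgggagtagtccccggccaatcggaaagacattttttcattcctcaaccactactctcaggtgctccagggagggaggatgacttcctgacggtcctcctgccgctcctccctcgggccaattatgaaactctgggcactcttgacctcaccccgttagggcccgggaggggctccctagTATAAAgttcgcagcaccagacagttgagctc
Both windows hold the letters of a TATA box, starting at -29 in AREG and at -32 in EREG, counted back from the start. The cAMP response element at -65 in AREG was found in no other of the 12 windows of 9 of the 10 genes that could be matched, and 1.65% of the 35116 promoter windows held it. TATA box letters stood in 10.7% of all windows, in those of 3 of the 9 genes. The AP-1 letters stood in 4.20% of all windows, and among the 9 genes in 1 of the EGFR windows. GC box letters stood in 42.6% of all windows and in those of 7 of the 9 genes. ERBB3 was not matched. A match is a description of letters and says nothing of use by a factor in these cells.

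HBEGF (chr5:140332843-140346603, minus strand) encodes an EGFR ligand that also binds heparan sulphate. Its level was 71.2 and 70.6 CPM in parental untreated, 69.3 and 68.2 CPM in parental indisulam, 105 and 102 CPM in resistant untreated and 88.5 and 92.4 CPM in resistant indisulam libraries. Every resistant library was above every parental library, and the resistant groups did not overlap. Off the drug it was 1.46-fold higher in resistant cells (log2 0.55 ± 0.031, adjusted p = 1.77e-13), and on the drug 1.32-fold higher (log2 0.40 ± 0.032, adjusted p = 9.19e-11). In resistant cells it was 12.7% lower on the drug than on the holiday (log2 -0.20 ± 0.031, adjusted p = 1.28e-05). In parental cells the log2 fold change was -0.043 ± 0.032 and did not pass the test (adjusted p = 0.255).

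TGFA (chr2:70447284-70554193, minus strand), the ligand that binds EGFR as its main receptor, was the only one of the 10 genes called in the same direction in all 4 comparisons of groups. Its level was 129 and 132 CPM in parental untreated, 152 and 152 CPM in parental indisulam, 163 and 161 CPM in resistant untreated and 184 and 187 CPM in resistant indisulam libraries. The 4 groups did not overlap and stood in that order. Indisulam raised it by 16.8% in parental cells (log2 0.22 ± 0.028, adjusted p = 3.35e-07) and by 14.2% in resistant cells (log2 0.19 ± 0.028, adjusted p = 3.68e-06). The responses differed by -0.032 ± 0.039 on the log2 scale (adjusted p = 0.528). Resistant cells were 1.25-fold higher off the drug (log2 0.32 ± 0.028, adjusted p = 6.24e-10) and 1.22-fold higher on it (log2 0.29 ± 0.028, adjusted p = 2.80e-09).

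EREG (chr4:74365145-74388749, plus strand) was at 0.0914 and 0.0655 CPM in parental untreated, 0.133 and 0.0775 CPM in parental indisulam, 0.189 and 0.108 CPM in resistant untreated and 0.208 and 0.166 CPM in resistant indisulam libraries. These levels rest on 17, 16, 21 and 30 reads per group. Neighbouring groups in the order of levels overlapped. Libraries of the lines did not overlap off the drug or on it, on these few reads. The log2 fold change between the lines was 0.93 ± 0.47 off the drug (adjusted p = 0.0945) and 0.80 ± 0.44 on the drug (adjusted p = 0.113), and neither passed the test.

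EGFR (chr7:55019017-55211628, plus strand) was at 386 and 394 CPM in parental untreated, 389 and 392 CPM in parental indisulam, 387 and 403 CPM in resistant untreated and 307 and 311 CPM in resistant indisulam libraries. The first 3 groups overlapped, and both resistant indisulam libraries were below all others. In resistant cells EGFR was 21.6% lower on the drug than on the holiday (log2 -0.35 ± 0.028, adjusted p = 3.52e-10). In parental cells the log2 fold change with 18 h of drug was 0.00075 ± 0.028 (adjusted p = 0.986). Off the drug the lines differed by 0.016 ± 0.028 on the log2 scale (adjusted p = 0.637), and on the drug resistant cells were 20.8% lower (log2 -0.34 ± 0.028, adjusted p = 2.07e-10).

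IGF1R (chr15:98648539-98964530, plus strand), whose product shares the adaptor IRS1 with the insulin receptor, was also lowest in the resistant indisulam libraries. It was at 30.3 and 30.4 CPM in parental untreated, 32.2 and 32.0 CPM in parental indisulam, 29.4 and 31.6 CPM in resistant untreated and 24.9 and 24.5 CPM in resistant indisulam libraries. The other 3 groups lay between 29.4 and 32.2 CPM. In resistant cells it was 18.9% lower on the drug than on the holiday (log2 -0.30 ± 0.041, adjusted p = 1.61e-06). In parental cells the log2 fold change was 0.083 ± 0.039, which missed the threshold (adjusted p = 0.0704) although the libraries did not overlap. Off the drug the lines differed by 0.0048 ± 0.039 (adjusted p = 0.926), and on the drug resistant cells were 23.2% lower (log2 -0.38 ± 0.041, adjusted p = 1.34e-08).

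ERBB2 (chr17:39687914-39730426, plus strand) differed between the lines in both comparisons. It was at 53.8 and 55.0 CPM in parental untreated, 55.0 and 54.9 CPM in parental indisulam, 65.0 and 65.1 CPM in resistant untreated and 69.0 and 63.9 CPM in resistant indisulam libraries. The groups of 1 line overlapped and the lines did not. Resistant cells were 19.5% higher off the drug (log2 0.26 ± 0.035, adjusted p = 9.39e-07) and 20.7% higher on it (log2 0.27 ± 0.036, adjusted p = 3.85e-07). The drug changed it by 0.014 ± 0.035 in parental cells (adjusted p = 0.751) and by 0.028 ± 0.035 in resistant cells (adjusted p = 0.535), both on the log2 scale. ERBB2 shares 571 exon bases with MIEN1 on the opposite strand, which is 5.53% of its exon bases, and MIEN1 held 20.8% of the reads of the pair. Because the strand setting of the counting was not given, reads of that stretch cannot be assigned with certainty.

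ERBB3 (chr12:56076799-56103505, plus strand) moved in opposite directions with the drug in the 2 lines. It was at 115 and 112 CPM in parental untreated, 88.2 and 87.7 CPM in parental indisulam, 122 and 120 CPM in resistant untreated and 131 and 130 CPM in resistant indisulam libraries. No 2 groups overlapped. Indisulam lowered it by 22.3% in parental cells (log2 -0.36 ± 0.029, adjusted p = 3.41e-10) and raised it by 8.03% in resistant cells (log2 0.11 ± 0.029, adjusted p = 0.00231). On the drug resistant cells were 1.48-fold higher (log2 0.57 ± 0.029, adjusted p = 2.05e-14). Off the drug the difference was 6.80% (log2 0.095 ± 0.029, adjusted p = 0.00623), a call that was lost when parental untreated replicate 2 was left out (log2 0.077, adjusted p = 0.113).

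AXL (chr19:41219223-41261766, plus strand) was at 1153 and 1130 CPM in parental untreated, 794 and 803 CPM in parental indisulam, 1045 and 1033 CPM in resistant untreated and 912 and 892 CPM in resistant indisulam libraries. It was lower with the drug in both lines, and the 4 groups did not overlap. The fall was 30.1% in parental cells (log2 -0.52 ± 0.028, adjusted p = 5.61e-13) and 13.2% in resistant cells (log2 -0.20 ± 0.028, adjusted p = 1.40e-06). The order of the lines turned with the drug. Off the drug resistant cells were 8.96% lower (log2 -0.14 ± 0.028, adjusted p = 0.000175), and on the drug they were 13.0% higher (log2 0.18 ± 0.028, adjusted p = 5.40e-06). AXL is often counted with mesenchymal genes. The mesenchymal marker sum was 11.9 to 12.6 CPM in all parental libraries, with or without the drug. In resistant cells, where AXL also fell, the sum was 22.0 and 23.0 CPM off the drug and 18.8 and 18.9 CPM on it. SNAI2 was called lower (log2 -0.52) and VIM called higher (log2 0.58). VIM was low, at 0.702 and 0.739 CPM off the drug and at 1.08 and 1.07 CPM on it. The part of these markers in the AXL values was not tested.

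MET (chr7:116672196-116798377, plus strand) was at 446 and 456 CPM in parental untreated, 503 and 503 CPM in parental indisulam, 389 and 389 CPM in resistant untreated and 381 and 396 CPM in resistant indisulam libraries. Both resistant groups overlapped and lay below all parental libraries. Indisulam raised MET by 11.6% in parental cells (log2 0.16 ± 0.028, adjusted p = 3.45e-05), and in resistant cells the log2 fold change was -0.0027 ± 0.028 (adjusted p = 0.947). Resistant cells were 13.6% lower off the drug (log2 -0.21 ± 0.028, adjusted p = 5.14e-07) and 22.7% lower on it (log2 -0.37 ± 0.028, adjusted p = 2.59e-11).

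The drug responses were then compared between the lines by the interaction. Exposure was 18 h in parental cells and continuous, against a holiday, in resistant cells, so the line and the length of exposure cannot be told apart here. ERBB3 and AXL had the higher response in resistant cells, by 0.47 ± 0.041 for ERBB3 (adjusted p = 3.32e-09) and 0.31 ± 0.039 for AXL (adjusted p = 7.30e-07) on the log2 scale. AREG (-0.47 ± 0.050, adjusted p = 8.25e-08), IGF1R (-0.38 ± 0.056, adjusted p = 5.74e-06) and EGFR (-0.35 ± 0.040, adjusted p = 1.65e-07) had the lower response in resistant cells. The smaller differences of MET (-0.16 ± 0.039, adjusted p = 0.00161) and HBEGF (-0.15 ± 0.044, adjusted p = 0.00617) were lost when libraries were scaled by their totals, at -0.045 for MET and -0.038 for HBEGF. HBEGF also lost its call without parental indisulam replicate 1 (-0.12), resistant indisulam replicate 1 (-0.11) or resistant untreated replicate 1 (-0.11). Scaling by totals moved the median of all genes to 0.13 in this comparison, from 0.010 with TMM. ERBB2, TGFA and EREG did not pass the interaction test.

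**Figure D3:**
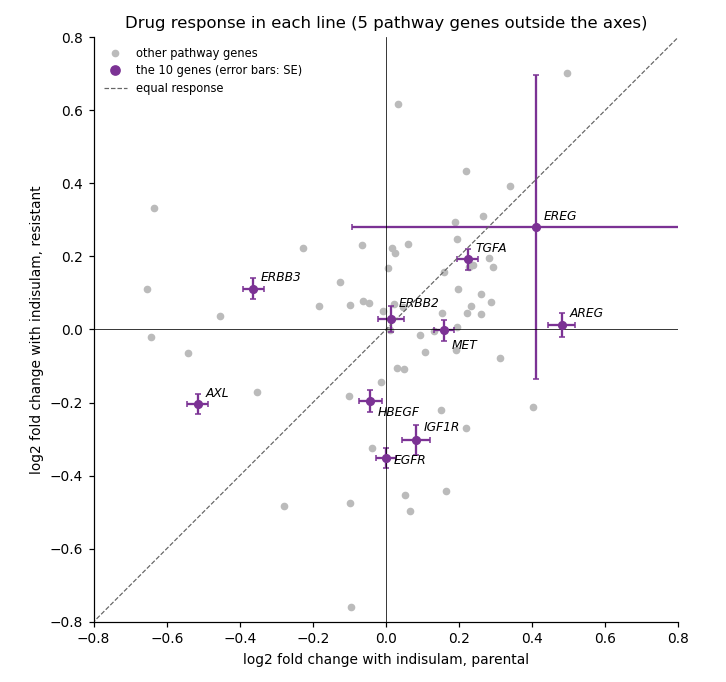
The log2 fold change with indisulam in parental cells (horizontal axis) against that in resistant cells (vertical axis), in purple for the 10 genes with SE bars and in grey for the other pathway genes tested, with a dashed line of equal response. TGFA lies near that line, AREG and MET lie to the right near the horizontal axis, EGFR lies below on the vertical axis, and ERBB3 lies at the upper left, called lower in parental and called higher in resistant cells. The SE bars of EREG run past the axes, as do 5 of the 65 other pathway genes.

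The other genes of the pathway were taken from 6 lists with 74 genes, of which 65 were tested. With indisulam 43 of the 65 were called in parental cells (58.2% of all genes), 27 higher and 16 lower, and 36 in resistant cells (50.7% of all genes), 23 higher and 13 lower. Between the lines 53 were called off the drug (60.1% of all genes), 29 higher and 24 lower, and 57 on the drug (69.5% of all genes), 32 higher and 25 lower. NRG3, HGF, IGF1 and IGF2, which encode ligands of the ERBB receptors, MET and IGF1R, had no read in any library. IGF1 shares 82.5% of its exon bases with HELLPAR on the opposite strand, and IGF2 shares bases with other genes on its own strand, so reads of these 2 genes could have been left unassigned. ERBB4, EPGN, NRG1, NRG4 and LRIG1 had too few reads to test. On the opposite strand LRIG1 shares 37.9% of its exon bases with SLC25A26, and NRG4 shares 38.2% with FBXO22. Reads of LRIG1 and NRG4 could therefore also have been left unassigned.

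Among the 8 other EGFR family receptors and ligands 3 were tested, EGF, BTC and NRG2. BTC, which encodes the EGFR ligand betacellulin, was at 9.06 and 8.76 CPM in untreated parental libraries and at 18.8 and 17.8 CPM in untreated resistant libraries. That was a log2 fold change of 1.04 ± 0.053 (adjusted p = 2.21e-14). In resistant cells BTC was 0.45 log2 units lower on the drug than on the holiday (SE 0.052, adjusted p = 1.20e-07). NRG2, a neuregulin, was lower in resistant cells off the drug (log2 -1.36 ± 0.27, adjusted p = 0.000112), and it fell in parental cells with the drug (log2 -1.12 ± 0.25, adjusted p = 0.000488), from 0.694 and 0.561 to 0.320 and 0.258 CPM. EGF was at 0.365 and 0.231 CPM in resistant untreated and 0.875 and 1.08 CPM in resistant indisulam libraries, a rise of 1.71 ± 0.25 (adjusted p = 4.00e-06). On the drug EGF was 0.60 ± 0.20 higher in resistant than in parental cells on the log2 scale (adjusted p = 0.0128). The call was lost with the DESeq2 Wald test (0.58, adjusted p = 0.113). It was also lost without parental indisulam replicate 2 (0.36) or resistant indisulam replicate 2 (0.42).

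Of the 10 relatives and ligands of MET, AXL and IGF1R 7 were tested, and all 7 differed between the lines off and on the drug, where 60.1% and 69.5% of all genes were called. GAS6, the ligand of AXL, was at 123 and 120 CPM in parental untreated, 116 and 112 CPM in parental indisulam, 265 and 280 CPM in resistant untreated and 163 and 159 CPM in resistant indisulam libraries. All resistant libraries were above all parental ones. Off the drug GAS6 was 1.16 ± 0.032 higher in resistant cells on the log2 scale (adjusted p = 1.02e-19). In resistant cells it was 0.76 lower on the drug than on the holiday (SE 0.031, adjusted p = 2.09e-15). PROS1, a second ligand of this receptor family, had 104 reads in parental untreated and 2 reads in resistant untreated libraries, a ratio of 33.4 in CPM (95% counting interval 9.02 to 280). On the drug it had 97 and 2 reads, a ratio of 52.1 (14.0 to 436). MST1R, a receptor related to MET, fell in parental cells with the drug (log2 -0.64 ± 0.037, adjusted p = 4.57e-11), from 116 and 119 to 76.6 and 74.3 CPM. MERTK, a receptor related to AXL, rose with the drug in resistant cells (log2 0.85 ± 0.085, adjusted p = 1.36e-08), and MST1, the ligand of MST1R, was higher in resistant cells on the drug (log2 1.50 ± 0.23, adjusted p = 2.88e-06).

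The 5 genes of ligand shedding were all called in parental cells with the drug, 2 higher and 3 lower, where 58.2% of all genes were called. In resistant cells, where 50.7% of all genes were called, 0 of 5 were called with edgeR and 0 of 5 with DESeq2, and 2 of the 5 had an unadjusted p under 0.05 with edgeR. The interaction was called for all 5, and for 50.1% of all genes. ADAM17, the protease that releases AREG, HBEGF and TGFA, was at 43.7 and 42.5 CPM in parental untreated and at 49.9 and 48.7 CPM in parental indisulam libraries, a log2 fold change of 0.19 ± 0.035 (adjusted p = 5.79e-05). ADAM17 shares exon bases with IAH1 on the opposite strand, so some of its reads cannot be assigned with certainty. RHBDF1 and RHBDF2 encode the inactive rhomboids that carry ADAM17 to the cell surface. RHBDF1 fell by 0.65 in parental cells with the drug (SE 0.048, adjusted p = 1.25e-09), and in resistant cells off the drug it was lower (log2 -0.17 ± 0.047, adjusted p = 0.00364), which was lost without resistant untreated replicate 1 (log2 -0.13). RHBDF2 was at 26.3 and 26.5 CPM in parental untreated and at 39.8 and 42.9 CPM in resistant untreated libraries, 0.65 ± 0.044 higher on the log2 scale (adjusted p = 1.68e-11), and 1.12 ± 0.047 higher on the drug (adjusted p = 2.91e-15).

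Of the 26 adaptor, RAS-ERK and PI3K-AKT genes, all tested, 20 differed between the lines off the drug (60.1% of all genes), 12 higher and 8 lower, and 23 on the drug (69.5% of all genes), 13 higher and 10 lower. Their median log2 fold change was 0.032 off the drug and 0.11 on it, against -0.015 and 0.0032 for all tested genes. IRS1, the adaptor of IGF1R and the insulin receptor, was at 23.1 and 24.3 CPM in parental untreated and at 44.0 and 45.2 CPM in resistant untreated libraries (log2 0.91 ± 0.042, adjusted p = 3.16e-15). MAP2K2, an ERK kinase, was lower in resistant cells, at 86.9 and 87.9 against 142 and 141 CPM off the drug (log2 -0.69 ± 0.031, adjusted p = 1.48e-15) and with a log2 fold change of -0.58 ± 0.031 under indisulam (adjusted p = 4.60e-14). PIK3R1, the regulatory subunit of PI3K, was 0.78 ± 0.044 higher on the drug (adjusted p = 1.10e-13). With indisulam 13 of the 26 rose and 4 fell in parental cells (31.6% and 26.6% of all genes), with the largest rise for HRAS (log2 0.31 ± 0.032, adjusted p = 2.11e-08) and the largest fall for PIK3R2 (log2 -1.43 ± 0.49, adjusted p = 0.0150), which was below 0.2 CPM in every library. PIK3R2 shares 76.4% of its exon bases with another annotated gene on the same strand, so its reads may have been left unassigned and its level is uncertain. PIK3R2 lost its call with the DESeq2 Wald test (log2 -1.45, adjusted p = 0.127). It also lost its call without either parental indisulam replicate or parental untreated replicate 2 (log2 -1.29 to -1.59). In resistant cells 11 rose and 2 fell (24.9% and 25.8% of all genes), with the largest rise for the adaptor GAB2 (log2 0.62 ± 0.045, adjusted p = 7.43e-11) and the largest fall for AKT2 (log2 -0.18 ± 0.029, adjusted p = 1.29e-05).

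Of the 13 negative regulators 12 were tested. They act at different steps from the receptors to ERK, and several are known to be raised by ERK signalling itself. Off the drug 4 were higher and 5 lower in resistant cells, and on the drug 3 were higher and 8 lower, where 60.1% and 69.5% of all genes were called. DUSP4, an ERK phosphatase, was at 17.6 and 17.7 CPM in parental untreated, 22.5 and 22.1 CPM in parental indisulam, 33.3 and 35.4 CPM in resistant untreated and 45.1 and 45.2 CPM in resistant indisulam libraries, and it was called higher in all 4 comparisons. ERRFI1, which binds EGFR and blocks its kinase, was lower in resistant cells on the drug (log2 -0.73 ± 0.028, adjusted p = 8.03e-17), at 178 and 182 against 303 and 296 CPM. SPRY1 was lower in resistant cells off the drug (log2 -0.52 ± 0.10, adjusted p = 9.81e-05). It fell with the drug in parental cells (log2 -0.28 ± 0.097, adjusted p = 0.0165). The call of this fall was lost with the DESeq2 Wald test (log2 -0.27, adjusted p = 0.121). Leaving out parental indisulam replicate 1 (-0.27) or parental untreated replicate 1 (-0.23) also removed it. In resistant cells LRIG3 was lower on the drug than on the holiday (log2 -0.50 ± 0.059, adjusted p = 2.63e-07).

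The 12 genes known to follow ERK signalling, all tested, went both ways. Off the drug 6 were higher and 3 lower in resistant cells, and on the drug 6 were higher and 5 lower, where 60.1% and 69.5% of all genes were called. Their medians were 0.10 and 0.14 on the log2 scale, against -0.015 and 0.0032 for all tested genes. FOS, an immediate early gene, rose with indisulam in parental cells from 10.7 and 10.3 to 14.6 and 15.0 CPM (log2 0.49 ± 0.050, adjusted p = 1.75e-08) and in resistant cells from 11.0 and 10.5 to 17.8 and 17.1 CPM (log2 0.70 ± 0.052, adjusted p = 9.87e-11). In resistant cells MYC was lower on the drug than on the holiday (log2 -0.47 ± 0.031, adjusted p = 1.00e-11). Its level on the drug was below that of treated parental cells (log2 -0.36 ± 0.031, adjusted p = 4.28e-10). JUN fell in parental cells (log2 -0.23 ± 0.046, adjusted p = 0.000293), and ETV5 was lower in resistant cells off the drug (log2 -0.24 ± 0.034, adjusted p = 1.47e-06). EPHA4 had 3 reads in parental untreated and 41 reads in resistant untreated libraries, a ratio of 21.3 in CPM (95% counting interval 6.79 to 107), and 1 and 27 reads on the drug, a ratio of 25.2 (4.15 to 1030).

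**Figure D4:**
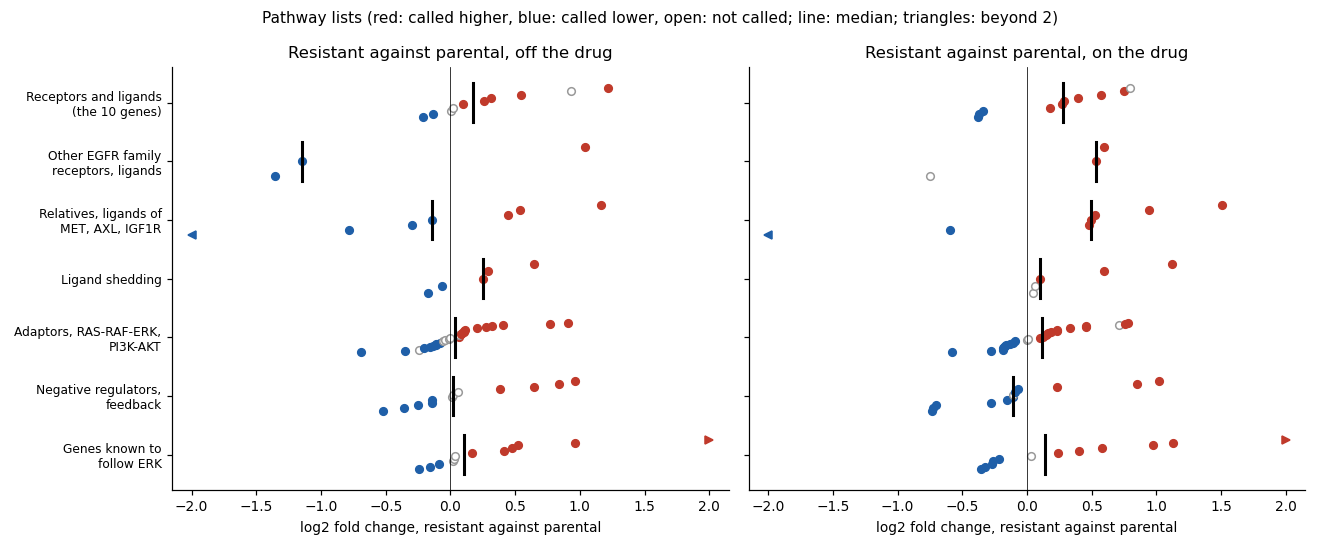
The log2 fold change of resistant against parental cells (horizontal axis) for each tested gene of the 10 receptors and ligands and of the 6 pathway lists (rows), off the drug on the left and on it on the right, with red and blue for called higher and lower, open symbols for not called, a line at the median and triangles for genes beyond 2. Each list with more than 3 tested genes holds genes on both sides of 0, except that no ligand shedding gene lies below 0 on the drug.

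Because AREG, BTC and EREG share a stretch of chromosome 4 with chemokine genes, the 17 protein-coding genes that start within 1 Mb of the start of AREG were described, a window chosen after values were seen. Of these, 10 were tested, AREG included. Off the drug 7 were higher and 2 lower in resistant cells, with a median log2 fold change of 0.98, where 30.3% of all genes were called higher and 29.9% lower. On the drug 7 were higher and 1 lower, with a median of 0.95, where 34.6% of all genes were called higher and 34.9% lower. CXCL8, a neutrophil-attracting chemokine, had means of 1.83 CPM (parental) and 6.51 CPM (resistant) off the drug (log2 1.84), CXCL5 at 3.41 and 12.8 CPM (log2 1.90) and CXCL1 at 0.679 and 2.10 CPM (log2 1.63). MTHFD2L, a mitochondrial folate enzyme that lies between the chemokine genes and EREG, was lower in resistant cells (log2 -0.35 off the drug). RASSF6, the tested gene farthest from AREG, was also lower off the drug (log2 -0.72), with means of 0.773 CPM (parental) and 0.474 CPM (resistant). On the drug RASSF6 was not called (log2 -0.16, adjusted p = 0.498). Indisulam in parental cells gave 3 higher and 3 lower of these genes (31.6% and 26.6% of all genes) and a median of 0.021, and AREG itself rose by 0.48 on the log2 scale.

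**Figure D5:**
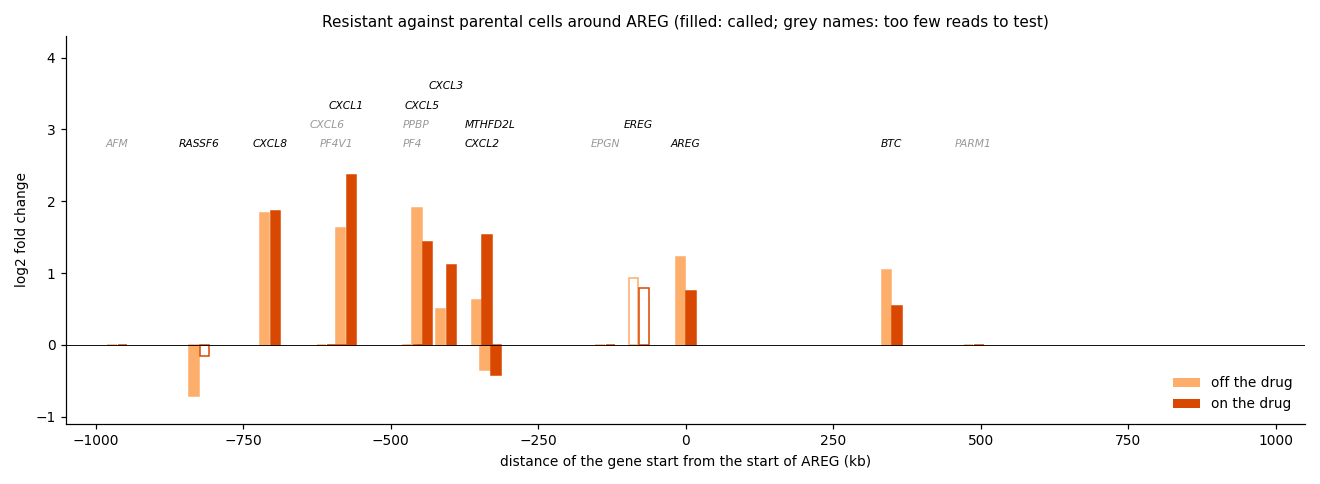
The log2 fold change of resistant against parental cells (vertical axis) for the protein-coding genes within 1 Mb of AREG, by the distance of their start from the start of AREG in kb (horizontal axis), with light bars off the drug and dark bars on it, filled where called. The bars of CXCL8, CXCL1, CXCL5, CXCL3, CXCL2, AREG and BTC are filled and above 0 in both comparisons, MTHFD2L is below 0 in both, and genes with grey names had too few reads to test.

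AREG, EREG and HBEGF had the widest range of the 4 group means on the log2 scale. The genes whose log2 CPM was most like theirs over the 8 libraries were sought among 8879 protein-coding genes. For AREG they were SLC2A1, FUCA1 and MT1E, with Pearson's r of 0.999, 0.998 and 0.997. SLC2A1, a glucose transporter, had group means of 59.5 and 79.3 CPM in parental cells without and with the drug and of 129 and 133 CPM in resistant cells without and with it, the same order as AREG. HBEGF was most like ARF3, TXNIP and PPP2R3A, each with an r of 0.997. EREG, with its few reads, was most like PATZ1 and EFNA1, with r of 0.943 and 0.928. The 8 points share 4 groups and the same libraries, so these values describe likeness only.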

How the data were processed

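RNA of Panc10.05 parental and resistant cells was sequenced in 8 libraries. The authors made stranded mRNA libraries, sequenced them from both ends, removed adapters with SeqPurge, mapped the reads to GRCh38 with HISAT2 2.2.1 and marked duplicates with Picard. HTSeq is named in the submitters' processing notes, and the strand setting and annotation release of the counting are not given in the sources used here. The deposited values are raw read counts per gene, with 9 lines for unassigned reads (duplicates included, 37.9% to 44.9% of a library's total), which were left out. The members and all lists were chosen with earlier results of these data known. Symbols and positions came from GENCODE release 44, which matched 60419 of 60675 identifiers, and promoter sequences from RefSeq tables on GRCh38.p14.

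Genes were filtered with filterByExpr and scaled with TMM, and 1 robust edgeR quasi-likelihood model held a mean for each of the 4 groups and all 8 libraries (edgeR 4.0.16, R 4.3.3). P-values were adjusted by Benjamini-Hochberg over all 16661 genes, and called at 0.05. The SE is the log2 fold change divided by the square root of F. The code was tested on simulated data. An exact permutation test of 2 libraries against 2 cannot go below 0.333 and was not used. Levels per kb use the canonical transcript. Named in the text are the 10 members in every comparison and, of each pathway list, the called genes with the largest rise and fall, or with the largest absolute difference for the interaction. The genes most alike are the 3 with the highest r for each of the 3 members with the widest range, at a mean log2 CPM of at least 3. Of these genes, 1 is not reported here. Alternatives were other scalings, filters, tests and thresholds, the replicate block and leaving out each library. Counting intervals are exact at 95%.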

Additional observations from a re-analysis of the deposited data

Results flagged for a closer look

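For 7 of the 10 genes the drug response differed between the lines in a test of the difference itself, the edgeR interaction across all genes, on the log2 scale and as the resistant minus the parental response. It was higher in resistant cells for ERBB3 (0.47) and AXL (0.31) and lower for AREG (-0.47), IGF1R (-0.38), EGFR (-0.35), MET (-0.16) and HBEGF (-0.15). ERBB3 was called lower in parental and higher in resistant cells. AXL was called lower in both. AREG and MET were called in parental cells, and EGFR, IGF1R and HBEGF in resistant cells.

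Of the pathway lists, the called gene with the largest difference was EGF (1.74), MST1 (0.97), RHBDF1 (0.77), GAB2 (0.58), DUSP6 (-0.61) and JUN (0.45), 1 for each list. EGF and MST1 were at most 1.16 CPM in every library. MST1 was no longer called with the DESeq2 Wald test (0.97, adjusted p = 0.0795). Nor was it called without parental untreated replicate 2 (0.83), resistant indisulam replicate 1 (0.79) or resistant untreated replicate 1 (0.80). Of all genes tested, 50.1% passed this test, and line and exposure length cannot be told apart in it.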

How the results depend on the processing

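Of the 50 pairs of a gene and a comparison 34 were called, and 31 of these 34 kept their call under every alternative other than the test against 0.5 log2 units. The exceptions were ERBB3 off the drug and the interactions of HBEGF and MET, given with their values above (with genes kept at a mean CPM of 1 or more, HBEGF was at -0.068 and MET at -0.076). Tested against 0.5 log2 units (glmTreat), 0, 0, 1, 2 and 0 of the 10 genes and 1042, 879, 2582, 3509 and 908 of all genes were called, in the order indisulam in parental cells, in resistant cells, lines off the drug, lines on the drug and interaction. Changes of sign occurred only in values that had not been called. For EGFR in parental cells the value was -0.066 with library totals (then called, adjusted p = 0.0430), -0.056 with the mean CPM filter at 1, -0.030 without a filter and -0.020 with only the groups compared. ERBB2 in parental cells gave -0.052, -0.042, -0.016 and -0.0063 under the same 4 settings. With library totals and with that filter, MET in resistant cells gave 0.046 and 0.025, TGFA in the interaction 0.083 and 0.053, and IGF1R off the drug -0.023 and -0.0012. EGFR off the drug gave -0.011 with library totals. Leaving out each library in turn gave -0.027 to 0.015 for EGFR and -0.0070 to 0.031 for ERBB2 in parental cells, -0.018 to 0.033 for AREG, -0.030 to 0.083 for ERBB2 and -0.033 to 0.020 for MET in resistant cells, -0.0025 to 0.046 for EGFR and -0.036 to 0.058 for IGF1R off the drug, and -0.023 to 0.091 for ERBB2 and -0.048 to 0.0034 for TGFA in the interaction. For EREG it gave -0.038 to 0.73 in parental cells, -0.049 to 0.76 in resistant cells and -0.45 to 0.37 in the interaction. A group left with 1 library was assumed to vary like the others. The causes were not tested.

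Calls were gained by EGFR as given, HBEGF in parental cells (-0.11 with library totals, -0.10 with the mean CPM filter, -0.064 with only the groups compared), IGF1R in parental cells (0.089 with DESeq2 size factors) and ERBB2 in the interaction (0.13 with library totals). Deviations of same-numbered libraries correlated between -0.238 and 0.176, so the numbers were not taken to pair the libraries, and with the replicate block 34 of the 50 pairs were called, as without it. With crossed numbers, an alternative chosen after seeing the data, 6 of the 10 genes were called for indisulam in resistant cells. With 2 technical replicates per group and 1 resistant line, culture and selection are not sampled, and EREG is limited by its few reads.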
